A study of Mus musculus with 36 samples.

Results

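The panel held 10 marker genes of liver macrophages: Emr1 (now Adgre1, the antigen used to stain mouse macrophages), Cd68, Clec4f, Marco, Cd5l, Cd163, Csf1r, Vsig4, Timd4 and Spic. They were chosen by name as Kupffer cell and macrophage markers, and a probe belonged to them when its gene name or accession in the array files was one of these symbols. They are 10 of the 13042 named genes with a probe in the authors' processed table. By this rule 14 of 41174 probes on the array were found, of which 13 were among the 21781 probes of that table. Liver RNA of 36 adult male mice was hybridised, 12 mice per group (C57BL/6J in the labels, the substrain C57BL/6JOlaHsd in the study's methods), each mouse labelled with Cy5 on its own array against a Cy3-labelled pool of all samples. All mice, by the labels, first ate a mild-high-fat diet (30 energy % fat) for 3 weeks (the study's methods give a shorter adaptation). The t0 group was killed at that point, the HF group ate the same diet for 12 more weeks, and the HF-Q group ate it for 12 weeks with 0.33% (w/w) quercetin, a plant flavonoid. By the labels HF and HF-Q differ in quercetin alone, whereas either of them differs from t0 in time on the diet and in age. HF-Q differs from t0 in quercetin as well. Within a comparison with t0 these differences cannot be told apart. The study's methods do not describe the t0 group.

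Kupffer cells are the resident macrophages of the liver. They sit in the sinusoids, take up particles, bacteria, old red cells and modified lipoproteins from the blood, and are kept alive by signals through the receptor Csf1r. Resident Kupffer cells carry Clec4f, Timd4 and Vsig4, whereas Emr1, Cd68 and Csf1r are shared with other macrophages, so the panel reads both resident and recruited cells. In whole liver, fewer cells of a type and less RNA per cell cannot be told apart.

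Values are the log2 numbers of the authors' table, the Cy5 signal of a mouse set against the pool, and they may be compared between mice for 1 gene but not between genes. A gene with several probes is given by its brightest. The probes used for the 10 genes were well above background on all 36 arrays in both channels and none was saturated. A change was called at an adjusted p under 0.05 in limma, with p-values adjusted over all 21781 probes. The array of HF-Q mouse 2 stood apart, with 96.7% of its Cy5 spots well above background where the next of its group had 66.3%, and that of HF mouse 5 had the lowest median correlation with its group (0.97). Without HF mouse 5 or without HF-Q mouse 2 the calls among the 10 genes did not change. Of 9 hepatocyte genes 8 were in the table, with a mean log2 value of 15.71 to 16.32 over the mice. Because values are not compared between genes, this range describes the samples and does not test their identity.

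Of the 10 genes, 1 was called in HF against t0, Cd163, which was higher, where 21.3% of all probes were called (10.9% higher, 10.4% lower). In HF-Q against t0 again 1 was called, Cd163, against 11.9% of all probes (6.62% higher, 5.3% lower). In HF-Q against HF none was called, against 2.36% of all probes (1.49% higher, 0.863% lower), and none had an unadjusted p under 0.05. Counted in either direction, the shares called among the 10 genes thus did not exceed the background. Counting higher calls alone in HF-Q against t0, 1 of 10 genes stood against 6.62% of all probes. The log2 fold changes nevertheless had one sign: 10 of 10 genes were higher in HF than in t0 (median 0.30, range 0.11 to 0.82), where 48.8% of all probes were higher, and 10 of 10 were higher in HF-Q than in t0 (median 0.30, range 0.10 to 0.92), where 54.6% were. Both comparisons use the same t0 mice, so they are not independent of each other. The 10 genes also varied together over the mice (median Pearson's r 0.72 over 45 pairs, group means subtracted). Their shared sign is therefore not 10 separate observations. In no comparison were the groups of a gene free of overlap, and the share of all probes free of overlap was not counted.

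The counts depended on 1 mouse. T0 mouse 4 had the highest value of its group for 10 of 10 genes, where it was the highest of the 12 for 12.8% of all probes. Without it, 7 of the 10 genes were called higher in HF than in t0 (Emr1, Clec4f, Cd5l, Cd163, Csf1r, Timd4 and Spic) against a background of 24%, and 8 were called higher in HF-Q than in t0 (the same 7 and Marco) against 14.7%. Median log2 fold changes were then 0.41 in both. This exclusion was chosen after the values were seen, and no label sets that mouse apart, although its array had the lowest median correlation with the t0 group (0.9883, next 0.9918). In the same mouse the mean of 22 other mononuclear phagocyte genes was 11.31, the highest of the group (next 10.72). The means of 5 recruited monocyte genes (10.37, next 9.67), 6 inflammatory cytokines and chemokines (10.005, next 9.252) and 11 lymphocyte genes were also the highest. The mean of 8 hepatocyte genes was the lowest of the 12, at 15.71. The part of these genes in the result was not tested.

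**Figure D1:**
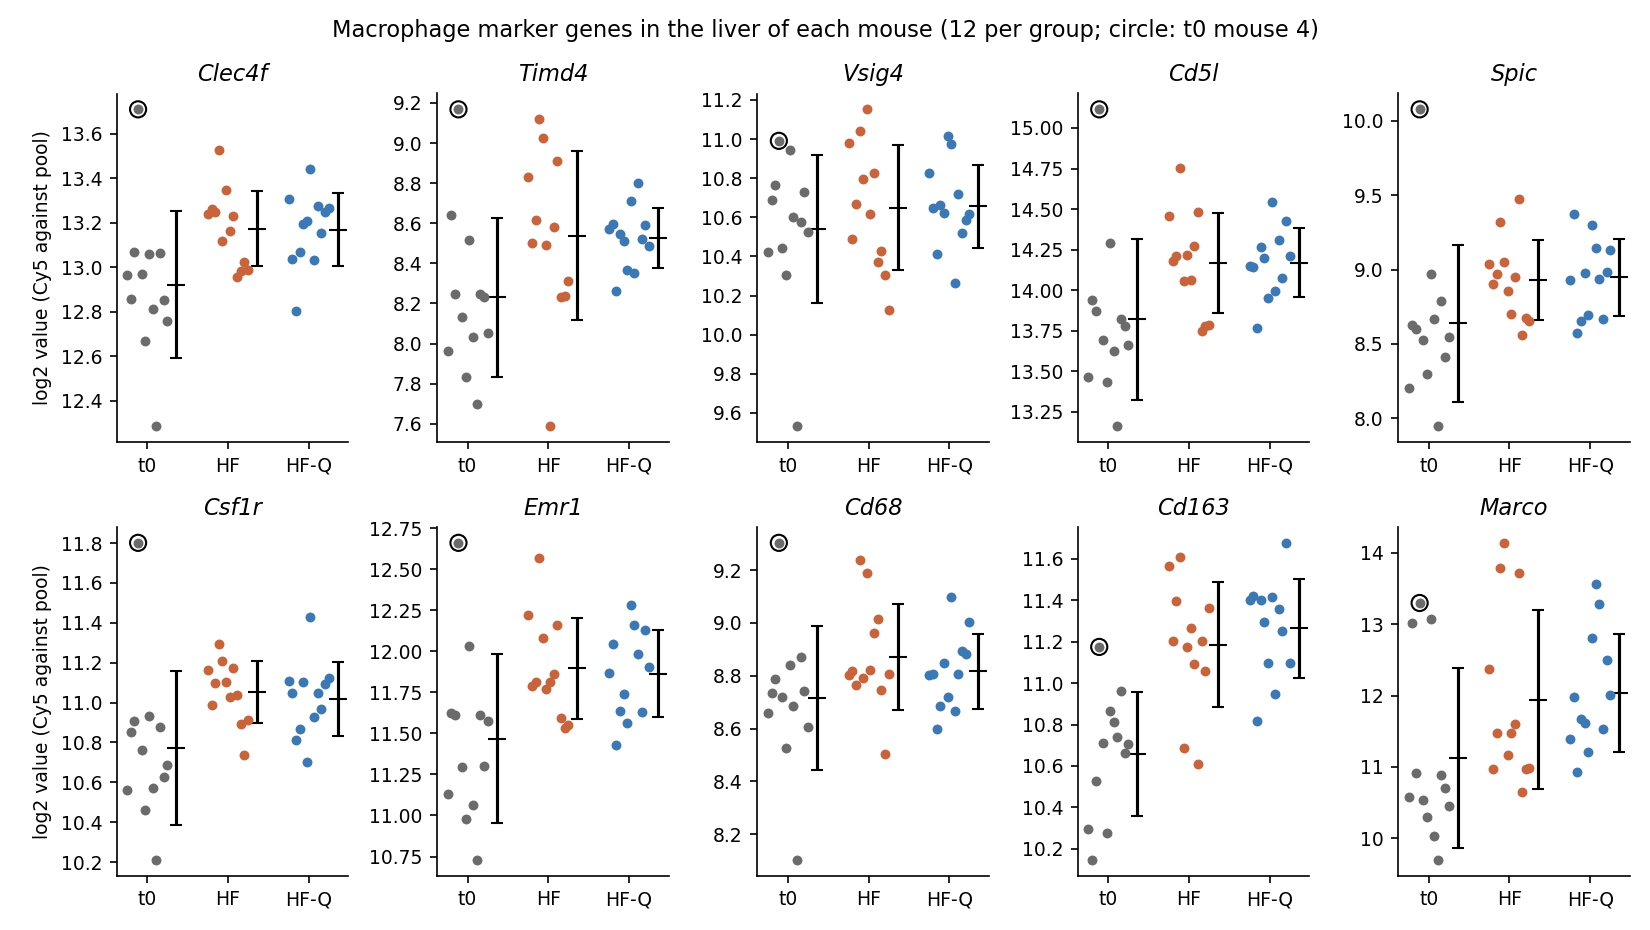
Log2 value of each marker gene (y axis, Cy5 signal against the pool) in each of 12 mice per group (x axis: t0, HF, HF-Q), with the mean and SD beside the points and t0 mouse 4 circled. The circled mouse is the highest t0 mouse in all 10 panels, and the groups overlap in each.

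The resident Kupffer cell genes were Clec4f, Timd4, Vsig4, Cd5l and Spic. Clec4f is a galactose-binding lectin that in mice is made by Kupffer cells, and its probe lies at chr6:83610945-83611003 in build mm8. It ranged from 12.29 to 13.71 in t0 (median 12.91), from 12.96 to 13.53 in HF (median 13.20) and from 12.81 to 13.44 in HF-Q (median 13.20). All 12 HF mice lay above the t0 median, and 6 t0 mice lay below the lowest HF mouse, so the groups were shifted but overlapping. The log2 fold change of HF against t0 was 0.25 (SE 0.10, adjusted p = 0.0758, limma), and that of HF-Q against t0 was 0.25 (SE 0.10, adjusted p = 0.111, limma).

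Timd4, a phosphatidylserine receptor for the uptake of dying cells, ranged from 7.70 to 9.17 in t0 (median 8.18), from 7.59 to 9.12 in HF (median 8.54) and from 8.26 to 8.80 in HF-Q (median 8.54). The HF-Q mice were close together and the lowest HF mouse lay below every t0 mouse. Its log2 fold change was 0.31 in HF against t0 (SE 0.15, adjusted p = 0.152, limma) and 0.30 in HF-Q against t0 (SE 0.11, adjusted p = 0.0901, limma), where 9 of 12 t0 mice lay below the lowest HF-Q mouse.

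Vsig4, a complement receptor that binds C3 fragments on particles, had the smallest difference of the 5 in HF against t0. It ranged from 9.53 to 10.99 in t0 (median 10.59), from 10.12 to 11.15 in HF (median 10.64) and from 10.27 to 11.02 in HF-Q (median 10.64), so the 3 medians nearly coincided. The log2 fold changes of 0.11 in HF and 0.11 in HF-Q against t0 had 95% confidence intervals of -0.16 to 0.38 and -0.13 to 0.35, and 7 and 8 of the 12 mice lay above the t0 median. Without t0 mouse 4 it was still not called in either (adjusted p = 0.428 and 0.409, limma).

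Cd5l (AIM), a secreted protein of tissue macrophages that carries a scavenger receptor fold (probe at chr3:87456828-87456887, mm8), ranged from 13.16 to 15.12 in t0 (median 13.74), from 13.75 to 14.75 in HF (median 14.20) and from 13.77 to 14.55 in HF-Q (median 14.17). All 12 mice of both 12-week groups lay above the t0 median, and the highest value of all belonged to t0 mouse 4, the next t0 mouse being at 14.29. The log2 fold change was 0.35 in both (SE 0.16, adjusted p = 0.109 in HF, and SE 0.14, adjusted p = 0.114 in HF-Q, limma). Without that mouse it was 0.46 in HF (SE 0.12, adjusted p = 0.00554, limma) and 0.47 in HF-Q (SE 0.10, adjusted p = 0.00298, limma).

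Spic, the transcription factor of iron-handling macrophages, showed the widest gap between t0 mouse 4 and its group: 10.08 against 8.97 for the next of the t0 mice, in a group with a lowest value of 7.95 and a median of 8.58. HF mice ranged from 8.56 to 9.47 (median 8.93) and HF-Q mice from 8.57 to 9.37 (median 8.96). The log2 fold change of HF against t0 was 0.29 (SE 0.16, adjusted p = 0.185, limma) and that of HF-Q was 0.31 (SE 0.16, adjusted p = 0.208, limma). Its dimmer second probe gave 0.24 and 0.23, of the same sign and likewise not called.

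The general macrophage genes were Emr1, Csf1r and Cd68. Emr1, an adhesion receptor of the macrophage surface (probe at chr17:57168755-57168814, mm8), ranged from 10.73 to 12.66 in t0 (median 11.44), from 11.54 to 12.57 in HF (median 11.81) and from 11.43 to 12.28 in HF-Q (median 11.89). Here 12 of 12 HF mice and 11 of 12 HF-Q mice lay above the t0 median, with 6 t0 mice below the lowest mouse of either group. The log2 fold change of HF against t0 was 0.43 (SE 0.16, 1.35-fold, adjusted p = 0.0557, limma) and that of HF-Q was 0.40 (SE 0.15, adjusted p = 0.0938, limma). The second Emr1 probe is not in the authors' table and was dim, 1.73 times background in Cy5 and well above background on 2 of 12 t0 arrays, so it gives no check of this value.

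Csf1r, the receptor for the growth factors Csf1 and Il34, ranged from 10.21 to 11.80 in t0 (median 10.73), from 10.74 to 11.30 in HF (median 11.07) and from 10.70 to 11.43 in HF-Q (median 11.05). The t0 mice spread widest, with an SD of 0.39 against 0.16 in HF and 0.19 in HF-Q. The log2 fold change was 0.28 in HF (SE 0.11, adjusted p = 0.0725, limma) and 0.25 in HF-Q (SE 0.12, adjusted p = 0.168, limma), and 0.38 and 0.34 without t0 mouse 4 (adjusted p = 0.001 and 0.00622, limma). Its dimmer probes gave 0.12 and 0.05 in HF and 0.17 and 0.27 in HF-Q with all mice, none of them called.

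Cd68, a lysosomal membrane protein of phagocytes, ranged from 8.10 to 9.30 in t0 (median 8.73), from 8.51 to 9.24 in HF (median 8.81) and from 8.60 to 9.098 in HF-Q (median 8.81). The medians lay close together and no t0 comparison called it, with log2 fold changes of 0.16 (95% confidence interval -0.04 to 0.35) in HF and 0.10 (-0.07 to 0.28) in HF-Q. It was not called without t0 mouse 4 (adjusted p = 0.0646 and 0.158, limma).

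The scavenger receptors were Cd163 and Marco, and they were the members with the largest differences. Cd163 takes up hemoglobin bound to haptoglobin, and its probe lies at chr6:124296085-124296144 (mm8). It ranged from 10.15 to 11.18 in t0 (median 10.71), from 10.61 to 11.61 in HF (median 11.20) and from 10.82 to 11.68 in HF-Q (median 11.33). Of the HF mice 10 of 12 lay above the t0 median and 7 above the highest t0 mouse, and of the HF-Q mice 12 of 12 and 8. Cd163 rose 1.44-fold in HF against t0 (log2 0.53, SE 0.12, 95% confidence interval 0.29 to 0.77, adjusted p = 0.00183, limma) and 1.53-fold in HF-Q (log2 0.61, SE 0.10, 0.40 to 0.82, adjusted p = 0.000416, limma). T0 mouse 4 was its highest t0 mouse by a smaller margin than for Spic or Cd5l (11.18 against 10.96), and without it the log2 fold changes were 0.58 and 0.66. Within the 9 slides, each of which carries all 3 groups, HF exceeded t0 on 8 and HF-Q exceeded t0 on 9.

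The Cd163 promoter is shown because Cd163 was the called member and varied least with the others, beside those of Cd5l, Clec4f and Marco, which varied together with the panel. Each is the RefSeq sequence of GRCm38.p6, 250 bases before to 50 after the gene's start, read 5′ to 3′ on the gene's strand: Cd163 chr6:124304401-124304700 (plus strand), Marco chr1:120504975-120505274 (minus), Cd5l chr3:87357631-87357930 (plus) and Clec4f chr6:83656067-83656366 (minus). Capitals mark GAGGAAG, the letters of a PU.1 site, and TGCTGA, those of a Maf site, on either strand (CTTCCTC and TCAGCA). No matches overlapped in these 4 windows.
Cd163: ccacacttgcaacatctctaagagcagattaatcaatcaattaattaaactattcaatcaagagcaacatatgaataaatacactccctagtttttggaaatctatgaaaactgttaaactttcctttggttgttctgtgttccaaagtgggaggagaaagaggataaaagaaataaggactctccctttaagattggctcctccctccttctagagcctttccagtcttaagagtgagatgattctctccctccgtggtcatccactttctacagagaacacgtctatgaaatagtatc
Marco: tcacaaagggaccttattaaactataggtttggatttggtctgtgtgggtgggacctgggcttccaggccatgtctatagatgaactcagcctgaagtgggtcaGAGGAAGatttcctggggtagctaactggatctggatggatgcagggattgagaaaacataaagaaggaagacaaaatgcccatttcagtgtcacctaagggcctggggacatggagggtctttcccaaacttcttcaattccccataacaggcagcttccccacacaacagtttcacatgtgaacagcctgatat
Cd5l: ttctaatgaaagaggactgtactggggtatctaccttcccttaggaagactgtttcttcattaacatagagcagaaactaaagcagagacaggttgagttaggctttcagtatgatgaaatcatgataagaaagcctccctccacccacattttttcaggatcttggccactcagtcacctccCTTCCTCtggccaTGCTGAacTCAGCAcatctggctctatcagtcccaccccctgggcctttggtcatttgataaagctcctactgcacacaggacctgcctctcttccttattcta
Clec4f: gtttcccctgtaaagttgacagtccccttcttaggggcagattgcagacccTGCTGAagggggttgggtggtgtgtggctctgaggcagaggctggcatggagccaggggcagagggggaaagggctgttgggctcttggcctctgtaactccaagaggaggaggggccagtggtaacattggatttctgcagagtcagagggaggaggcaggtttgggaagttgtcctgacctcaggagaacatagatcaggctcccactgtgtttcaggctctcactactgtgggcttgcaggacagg
Of the 10 genes 8 had a promoter in that table, and GAGGAAG stood in 2 of them, Marco and Cd5l, against 13.6% of all 32851 promoters. TGCTGA stood in 5, Clec4f, Cd5l, Vsig4, Timd4 and Spic, against 19.5%. The Cd163 window held neither.

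Marco, which binds bacteria and mineral particles (probe at chr1:122302084-122302103, mm8), differed from the rest in its spread. T0 mice ranged from 9.70 to 13.30 (median 10.64), HF mice from 10.64 to 14.14 (median 11.47) and HF-Q mice from 10.92 to 13.56 (median 11.83), so its SD in HF was 1.25 where that of Emr1 was 0.31. T0 mice 2, 4 and 7 lay at 13.02 to 13.30 and the other 9 at 10.92 or below, while HF mice 4, 5 and 9 lay at 13.72 to 14.14 and the other 9 at 12.37 or below. The log2 fold change of HF against t0 was 0.82 (SE 0.46, 95% confidence interval -0.13 to 1.77, adjusted p = 0.205, limma) and that of HF-Q was 0.92 (SE 0.39, 0.11 to 1.73, adjusted p = 0.132, limma). Without HF mouse 5, the array that stood apart, HF against t0 gave 0.62. All 12 mice of HF and all 12 of HF-Q nevertheless lay above the t0 median.

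**Figure D2:**
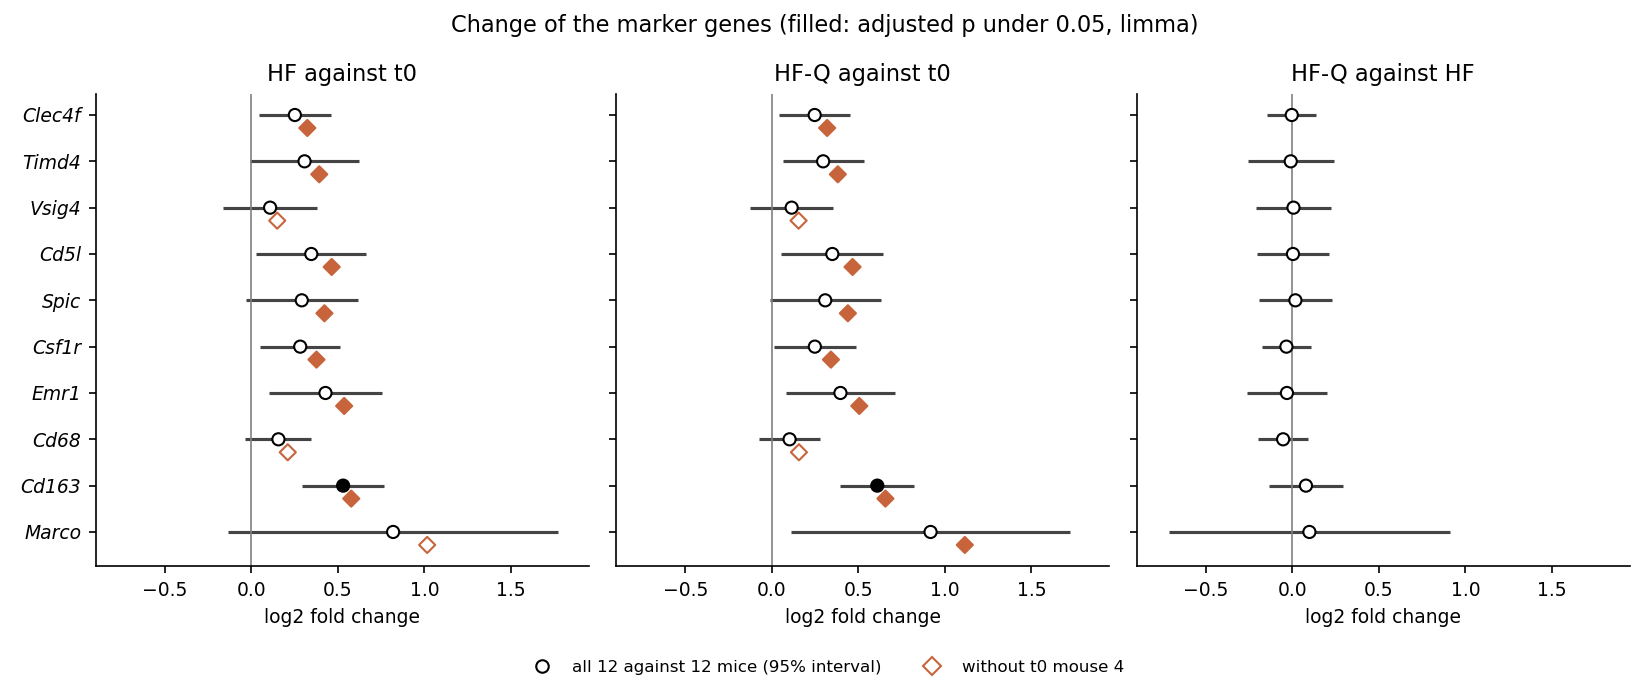
Log2 fold change of each marker gene (x axis) in 3 comparisons, as circles with 95% confidence intervals over 12 against 12 mice, and as diamonds without t0 mouse 4. Filled symbols have an adjusted p under 0.05: Cd163 alone among the circles, and 7 and 8 of the 10 diamonds in HF and HF-Q against t0.

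Quercetin was the question of the study, and no difference between HF-Q and HF was found for these genes. Log2 fold changes of HF-Q against HF ran from -0.05 (Cd68) to 0.10 (Marco), 5 above and 5 below 0, with adjusted p from 0.75 to 0.993 (limma). For 9 genes the 95% confidence interval lay within -0.26 to 0.30, which leaves room for differences up to that size. Emr1 had -0.03 (-0.26 to 0.20), Cd163 0.08 (-0.14 to 0.30) and Clec4f 0.00 (-0.15 to 0.14), whereas Marco had the widest interval, -0.71 to 0.91. Within slides, HF-Q exceeded HF on 3 to 6 of the 9 slides, depending on the gene.

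With the slide as a fixed block, Emr1 was called in both t0 comparisons (log2 fold change 0.51, adjusted p = 0.02 in HF, and 0.48, adjusted p = 0.0239 in HF-Q, limma), and Csf1r in HF (0.36, adjusted p = 0.0377). With the slide as a random block Emr1 was called in HF (adjusted p = 0.0459) but not in HF-Q (adjusted p = 0.0833), and Csf1r in neither (adjusted p = 0.0608 and 0.155, limma). Cd163 remained called with the fixed block (adjusted p = 0.00373 and 0.00471) and with the random one (adjusted p = 0.00152 and 0.000403, limma). Within the single slides the difference of HF from t0 ran from -0.57 to 1.06 for Emr1 and from -0.02 to 0.95 for Cd163, and that of HF-Q from t0 from -0.25 to 0.83 and from 0.01 to 1.00.

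Members were compared over the 36 mice with each group's mean subtracted. For the 36 pairs without Cd163, Pearson's r had a median of 0.76 (0.41 to 0.91) and Spearman's rho of 0.72 (0.44 to 0.89), and 36 of 36 had an adjusted p under 0.05 in a two-sided permutation test over mice (100000 permutations within groups, adjusted over all 45 pairs). Emr1 and Cd5l were the closest pair (r = 0.91, rho = 0.80, permutation p = 1e-05 for each, the smallest that the permutations can give). For the 9 pairs with Cd163 the median r was 0.33 (-0.02 with Marco to 0.49 with Clec4f), and 4 of 9 had an adjusted p under 0.05 for r and 3 of 9 for rho. Leaving out the 2 mice farthest from the median of the first gene gave medians of 0.67 and 0.40. Within groups the median r over all 45 pairs was 0.86 in t0, 0.63 in HF and 0.55 in HF-Q, and it was 0.67 over all mice without t0 mouse 4.

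**Figure D3:**
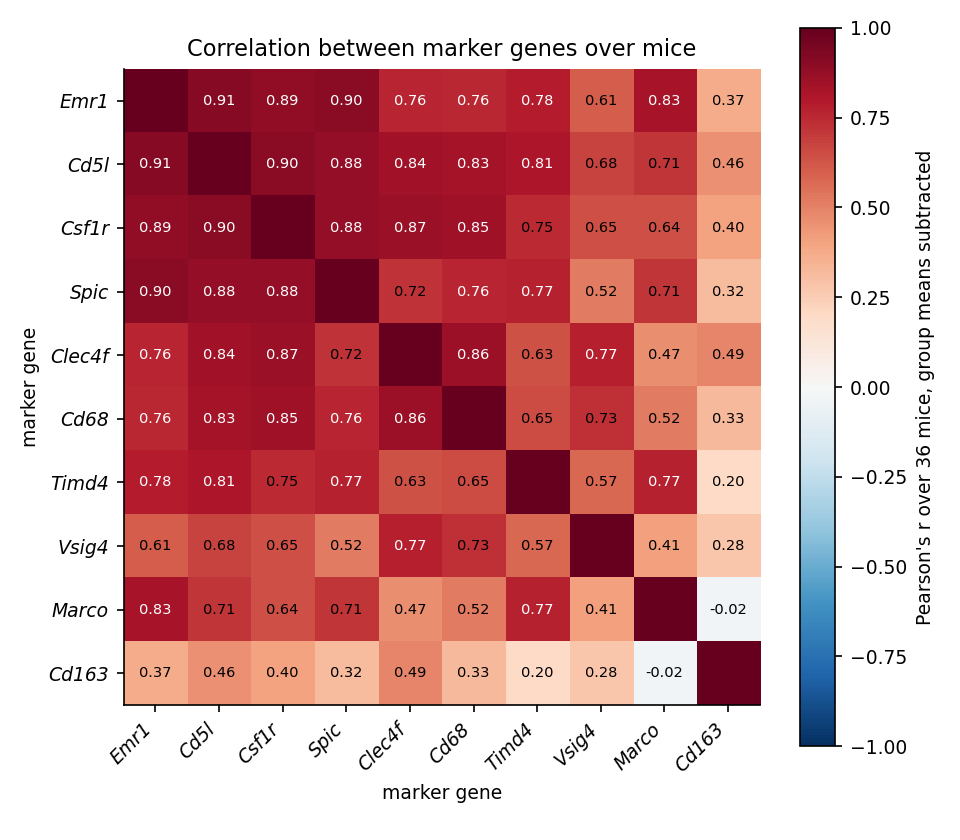
Pearson's r between each pair of marker genes over 36 mice, group means subtracted, as a colour from -1 to 1 with the value printed. The 9 genes above Cd163 form a block with r from 0.41 to 0.91, and the Cd163 row runs from -0.02 to 0.49.

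The mean of the 10 standardised values set the mice in order. T0 ranged from -1.97 SD units (mouse 9, the lowest of its group for 9 of 10 genes) to 2.94 (mouse 4), HF from -0.98 to 1.51 (mouse 4, the highest for 7 genes) and HF-Q from -1.11 (mouse 3, the lowest for 8) to 1.02 (mouse 7). Of 13032 other genes with a probe in the table, those that followed this mean most closely were Cfp (properdin, r = 0.94), C1qc (a complement C1q chain, 0.93), Treml4 and Fpr1 (0.92 each, a receptor of dead cells and one of formyl peptides), Marchf1 (0.90), Igsf6 (0.90), Ptprc (Cd45, 0.89) and Fcer1g (0.89), where the median gene had -0.06. The closest to Cd163 were Clec1b (0.68), Fes (0.66) and Gmfg (0.64), and to Marco, chosen for this after its values were seen, Aoah (0.87), Cd300e (0.86) and Fpr1 (0.83). These values pool the 3 groups, t0 mouse 4 included. Within t0, HF and HF-Q, r with the members' mean was 0.988, 0.91 and 0.775 for Cfp and 0.956, 0.84 and 0.926 for C1qc. For Clec1b with Cd163 it was 0.883, 0.412 and 0.655.

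**Figure D4:**
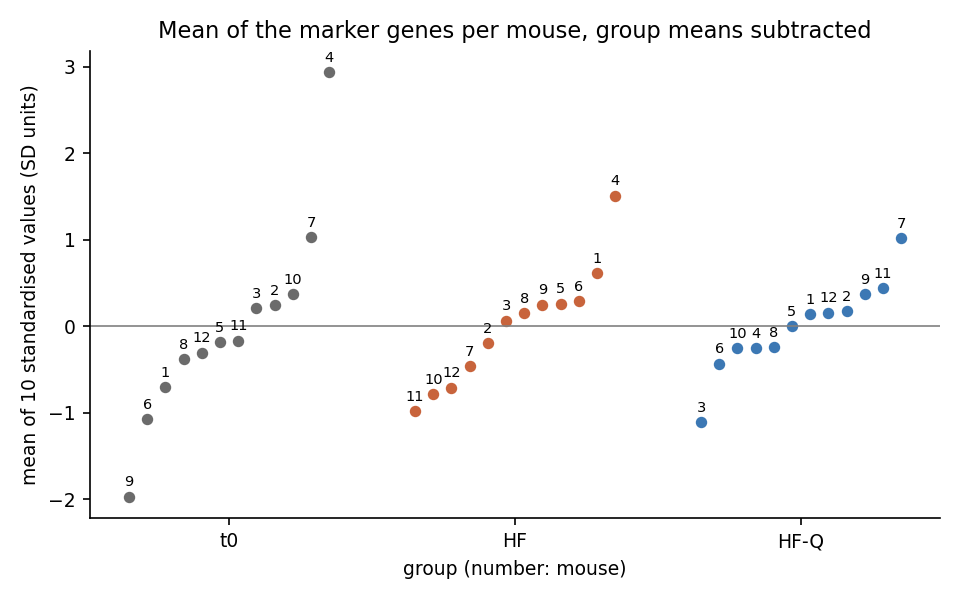
Mean of the 10 standardised marker values per mouse (y axis, SD units, group means subtracted) for the 3 groups (x axis), each point numbered by mouse and ordered by value within its group. T0 mouse 4 is at 2.94 and t0 mouse 9 at -1.97, and the HF-Q mice lie between -1.11 and 1.02.

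Lists of other liver genes, chosen with earlier results of these data known, were set beside the panel. Of 22 mononuclear phagocyte genes, 7 were called higher in HF against t0 and 4 in HF-Q, and none lower, where 10.9% and 6.62% of all probes were called higher, with a median log2 fold change of 0.27 and 0.25. The called genes included Aif1 (Iba1, log2 fold change 0.60, adjusted p = 0.00543), Fcgr1 (an Fc receptor, 0.50, adjusted p = 0.0131), Tyrobp (a signalling adaptor, 0.48, adjusted p = 0.0111) and Ctss (a lysosomal protease, 0.43, adjusted p = 0.0293, limma) in HF. In HF-Q the 4 were Aif1 (0.44), Tyrobp (0.42), Cybb, a subunit of the phagocyte oxidase (0.36), and C1qc (0.32). Without t0 mouse 4, 17 and 16 of the 22 were called, against 24% and 14.7% of all probes. In HF-Q against HF 7 of the 22 had a higher mean in HF-Q, and Mertk, a receptor for the uptake of dying cells, was the called one (0.22, adjusted p = 0.0441, limma), against 2.36% of all probes. Of 12 further Kupffer cell genes, 3 were called in HF, near the background of 21.3% of all probes: Id3 (0.46) and Hmox1, which breaks down heme (0.35), rose, and Hpgd, which inactivates prostaglandins, fell by 0.57 on the log2 scale. Folr2, a folate receptor of resident macrophages (0.34), was the called one in HF-Q, where 11.9% of all probes were called. Without t0 mouse 4, 8 and 6 of the 12 were called, against 24% and 14.7%.

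Of the Csf1r ligands and lineage factors 8 of 9 were measured (Spi1 was not in the table), and Id3 is among them too. Csf1, the growth factor that keeps these cells alive, rose in HF (log2 fold change 0.28, adjusted p = 0.0137) and in HF-Q (0.30, adjusted p = 0.00948, limma) against t0, whereas Il34, the second ligand, was at -0.07 and -0.01 (not called). Zeb2, a transcription factor of macrophage identity, rose in both (0.33, adjusted p = 0.000933, and 0.23, adjusted p = 0.0498, limma). In these comparisons 21.3% and 11.9% of all probes were called.

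Recruited cells were read less well: only 5 of 10 recruited monocyte genes were in the table, and Ly6c2, Cx3cr1, F13a1 and Itgam were among those that were not. None of the 5 was called with all mice. Of all probes 21.3% were called in HF against t0, 11.9% in HF-Q against t0 and 2.36% in HF-Q against HF. Of 6 inflammatory cytokines and chemokines in the table (Tnf, Il6, Il10, Il12b, Ccl3 and Nos2 were not in it), Il1b rose in HF against t0 (0.42, adjusted p = 0.0316, limma). None was called in HF-Q against t0, where Il1b was at 0.28 (adjusted p = 0.171), or in HF-Q against HF, where it was at -0.14 (adjusted p = 0.558, limma). Without t0 mouse 4, 4 of these 6 genes were called in HF and 3 in HF-Q against t0, against 24% and 14.7% of all probes. Of 6 lipid-associated macrophage genes, Cd9 (0.71, adjusted p = 3.45e-06) and Lpl (0.48, adjusted p = 0.00416) rose in HF, Cd9 also rose in HF-Q against t0 (0.37, adjusted p = 0.00367), and Cd9 fell by 0.34 in HF-Q against HF (adjusted p = 0.0378, limma). Trem2 and Spp1 were not called in any comparison.

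Genes of other cell types stood beside the panel as follows, their part in the results not tested. The mean over mice of 11 lymphocyte genes correlated with the panel's mean at r = 0.62 (0.42 without t0 mouse 4), that of 13 sinusoidal endothelial cell genes at -0.03, of 11 stellate cell genes at -0.33 and of 8 hepatocyte genes at -0.32 (-0.04 without it). The medians of the hepatocyte list were 16.12 in t0, 16.02 in HF and 15.99 in HF-Q, and those of the endothelial list 10.81, 10.88 and 10.86. Single genes of these lists were called. Of all probes 21.3% were called in HF against t0, 11.9% in HF-Q against t0 and 2.36% in HF-Q against HF. Cps1, the first enzyme of the urea cycle, fell by 0.32 in HF against t0 (adjusted p = 0.0184, limma). In HF-Q against t0 Cps1 fell by 0.45, Ass1, another urea cycle enzyme, fell by 0.36, and Ttr, a carrier of thyroid hormone, fell by 0.33 (adjusted p = 0.00294, 0.0245 and 0.0377, limma). Of the endothelial genes Gpr182 (0.24) and Cdh5 (0.20) rose in HF against t0, and Pecam1 fell by 0.34 there (adjusted p = 0.0036) and rose by 0.38 in HF-Q against HF (adjusted p = 0.00734, limma). Of the 11 stellate cell genes 3 were called in HF against t0, Acta2 (0.29), Ngfr (0.28) and Colec11 (0.20), all higher. None was called in HF-Q against t0 (0 of 11). Of the lymphocyte genes Ms4a1 rose in HF (0.34) and in HF-Q (0.46), and Cd8b1 in HF-Q (0.28). Among the neutrophil genes 3 of 9 were in the table, and S100a9 rose in HF (0.72, adjusted p = 0.00471) and in HF-Q (0.72, adjusted p = 0.00273, limma). Hba-a1, a hemoglobin chain of red cells, rose in HF (0.93, adjusted p = 0.000308) and in HF-Q (1.21, adjusted p = 4.05e-07, limma), with group means of 14.33, 15.26 and 15.54. Alas2, the heme synthesis enzyme of red cell precursors, was at -0.14 in HF (not called) and fell by 0.26 in HF-Q (adjusted p = 0.0172, limma), so the 2 erythroid genes in the table had opposite signs, and their mean correlated with the panel's mean at -0.05. Among 6 cholangiocyte genes Sox9 (0.64), Krt19 (0.42) and Krt7 (0.29) rose in HF against t0, and Sox9 fell by 0.60 in HF-Q against HF (adjusted p = 0.00053, limma).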

How the data were processed

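Liver RNA of 36 mice was measured on 36 2-colour Agilent 4x44K arrays on 9 slides. The authors quantified the scans with Agilent Feature Extraction (version 10.5.1.1 per the labels), which gives an intensity per spot and channel. The authors deposited a table of log2 values for 23256 spots. Set against the scanner intensities, these were log2 Cy5 minus log2 Cy3 plus a constant per spot, with every array at one median (8.96) and no background subtraction visible (median absolute difference 0.02, lowest array correlation 0.9999). Differences of dim probes are therefore compressed. Scale and direction were settled by this check, and how each spot's constant was chosen was not. Array number limits the precision.

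Spots of a probe were averaged, and the values of each pair of groups (24 arrays) were fitted with limma (lmFit, eBayes, Benjamini-Hochberg over 21781 probes). All 10 members were named with every probe, along with up to 4 called genes per list and comparison and the genes most like the members' mean. The members and lists were chosen with earlier results of these data known. Alternatives used the scanner files (normexp offset 50, loess and others), the slide or replicate number as a term, array weights and leaving out arrays. Same-numbered mice did not pair (median correlation 0.06, 0.03 and -0.01 over 12 pairs). Each sample is 1 mouse. Results of some listed genes are not reported here. Probe positions are of mm8 (no exon is given for them here) and promoters of GRCm38.p6. The procedure was tested on simulated data. R 4.3.3, limma 3.58.1, Python 3.11.15 and matplotlib 3.10.9 were used.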

Additional observations from a re-analysis of the deposited data

How the results depend on the processing

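Cd163 was called in both t0 comparisons under all 15 other settings and with each of 24 arrays left out (adjusted p at most 0.00455 and 0.0248 over the settings), and no member was called in HF-Q against HF under any. In HF against t0 the members called numbered 6 after median centring of scanner ratios, which moved the median of all probes by 0.12 (log2), 5 with array weights, 4 with all 36 arrays in 1 fit, 4 with the replicate block, 3 with the slide as a fixed block and 2 with it as a random block. In HF-Q against t0 they numbered 8 with array weights and 2 with the fixed slide block. Probes called in HF against t0 numbered 3378 of 18196 with median centring, 6204 of 21781 with array weights and 4554 with 1 fit. They numbered 3758 with the fixed and 4786 with the random slide block, where the main fit called 4645. In HF-Q against t0, array weights called 4220 and the fixed slide block 2420, where the main fit called 2596. With 1 array left out, alternatives chosen after seeing the data, the members called ranged from 1 to 7 in HF and from 1 to 8 in HF-Q against t0. Leaving out t0 mouse 7 or HF mice 7, 11 or 12 gave 2 in HF. All members kept a positive sign in both t0 comparisons under every setting, except Cd68 in HF-Q, which went to -0.02 with Cy5 alone. Signs of the HF-Q against HF differences, all near 0 and uncalled, did change. The cause of these moves was not tested. The replicate block gave 4636, 2372 and 360 probes called in HF against t0, HF-Q against t0 and HF-Q against HF, where 4645, 2596 and 513 were called without it. Median centring gave 342 and 68 probes in the last 2, the Cy5 channel alone 2822, 1229 and 205, array weights 4220 and 804 in the last 2, and the fixed slide block 210 in HF-Q against HF. Of the calls, 51.3%, 55.5% and 63.4% were higher, against 88.2% and 25% after median centring in HF against t0 and HF-Q against HF, and 43.3%, 44.6% and 37.8% in HF-Q against t0 without background correction, with the Feature Extraction signals and with Cy5 alone. The methods' t-test gave 4423, 2483 and 393 calls after Benjamini-Hochberg adjustment. With 1 array left out, probes called ranged from 3988 to 5235, 1971 to 3200 and 358 to 614. The median r over member pairs stayed between 0.67 and 0.76 under the alternatives. Without HF-Q mouse 2 it was 0.73.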
